A study of Mus musculus with 536 samples.

Results

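Ccr2, Cx3cr1 and Csf1r encode 3 cell surface receptors by which monocytes are recognised and steered, and their transcript levels were followed in mouse blood after irradiation. The genes were taken by symbol from the deposited table of array values, and each was read from its brightest probe set by the mean across arrays. They are 3 of the 12393 genes that the table names.

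Monocytes are made in the bone marrow, enter the blood and supply macrophages to tissues. Ccr2 binds the chemokines Ccl2, Ccl7 and Ccl12, draws monocytes out of the marrow towards inflamed tissue, and is the receptor by which classical monocytes, the freshly released kind, are known. Cx3cr1 binds the membrane-anchored chemokine Cx3cl1 and is high on non-classical monocytes, which patrol vessel walls and depend on the transcription factor Nr4a1, and it is also carried by NK cells. Csf1r is the receptor tyrosine kinase for the growth factors Csf1 and Il34, and it is present on both kinds of monocyte and on macrophages in tissues.

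The samples were peripheral blood of C57BL/6 mice from the Jackson Laboratory, of both sexes and 10 to 12 weeks old, drawn by terminal cardiac puncture. Each mouse had received a single total body dose from a Cs137 irradiator at 480 cGy/min, or 0 cGy. Globin-reduced RNA was hybridised to 536 Affymetrix mouse 430A 2.0 arrays, and 2 mice had been scanned again, which left 534 mice. No transgene or deletion is named, so the mice were taken as wild type. No sorting step is named either, so all the cells in the blood drawn contributed to each value. Transcripts of cells that are not blood cells were among them, as given below.

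The mice formed 4 sets by their labels. In the dose-time set were 240 mice (48 groups of 5), given 0, 100, 200 or 300 cGy, or else 450, 600, 800 or 1050 cGy, and bled at 6, 24, 48, 72, 120 or 168 hr, with no agent and no sex stated. In the sex-treatment set were 226 mice (48 groups of 3 to 5), females and males given no agent, GCSF or LPS with 0, 200, 300 or 600 cGy and bled at 6 or 24 hr. GCSF is a growth factor that drives neutrophil production, and LPS is a bacterial cell wall component that sets off inflammation. In the small treatment set were 50 mice (9 groups), given no agent, GCSF or LPS with 0, 150 or 600 cGy and bled at 6 hr. The small 7 day set comprised 18 mice (4 groups), of which 10 mice given 150 cGy and 3 mice given 0 cGy were bled at 168 hr. The doses of the agents and when they were given relative to irradiation are not in the sources used here.

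Values are log2 signals of a probe set, so a difference of 1 is a 2-fold difference in signal, and the level of a probe set is not comparable with that of another gene's. Ccr2 (Entrez 12772, probe set 1421186_at) had a mean of 8.72 over the mice, which put it at percentile 91.2 of all genes by mean signal. Cx3cr1 (Entrez 13051, probe set 1450020_at) had a mean of 6.45, at percentile 63.2. Csf1r (Entrez 12978, probe set 1419872_at) had a mean of 10.34, at percentile 97.2. The other probe sets of Ccr2 followed the chosen one over the mice with r = 0.96 and 0.87, and those of Csf1r with r = 0.94 and 0.82. The other probe set of Cx3cr1 was dim, with a mean of 4.18 at percentile 16.7, and it followed the chosen one with r = 0.23 only, so the values of Cx3cr1 rest on 1 probe set.

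Ccr2 and Cx3cr1 both lie on mouse chromosome 9, and the 250 bases before their start sites are shown because both genes fell at the late times and because several transcription factors that bind such sequence were measured on the same arrays. In the RefSeq annotation of GRCm38.p6, Ccr2 spans chr9:124101918-124109140 on the plus strand and Cx3cr1 spans chr9:120048683-120068296 on the minus strand. The sequences are RefSeq's, 5′ to 3′ on the strand of the gene, at chr9:124101933-124102182 for Ccr2 and chr9:120068297-120068546 for Cx3cr1. The window of Ccr2 ends before a start site inside the gene, and the whole window lies within the annotated span. A longer transcript starts further upstream. The window of Cx3cr1 lies wholly outside the annotated span of its gene. Capitals mark GGAA or its reverse complement TTCC, the core letters bound by ETS factors, of which Spi1 (PU.1) is the one that directs monocyte development.
Ccr2: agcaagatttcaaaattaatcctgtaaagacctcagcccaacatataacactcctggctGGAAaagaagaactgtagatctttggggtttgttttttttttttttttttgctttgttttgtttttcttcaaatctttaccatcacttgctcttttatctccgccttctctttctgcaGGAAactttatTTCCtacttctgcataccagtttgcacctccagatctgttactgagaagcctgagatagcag
Cx3cr1: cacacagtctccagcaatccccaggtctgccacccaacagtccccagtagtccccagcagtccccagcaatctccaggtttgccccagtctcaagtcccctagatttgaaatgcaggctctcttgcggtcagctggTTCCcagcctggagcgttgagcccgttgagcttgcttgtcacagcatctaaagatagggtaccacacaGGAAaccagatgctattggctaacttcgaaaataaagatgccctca
The Ccr2 window held GGAA at 2 places on the gene's strand and at 1 place on the other, and its GC content was 37.2%. The Cx3cr1 window held it at 1 place on each strand, with a GC content of 53.6%. GGAA on either strand occurred in 30698 of 32851 promoter windows of the same length (93.4%), so its presence does not set these genes apart. The longer GAGGAA (23.3% of windows, either strand) and GAAA repeated after 2 bases of any kind (2.98% of windows, either strand), letters bound by Spi1 and by interferon regulatory factors, were in neither window.

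The labelled tissue was checked against marker genes. The monocyte markers Lyz2 and Ctss lay at percentiles 99.9 and 98.9 of all genes by mean signal, Mpeg1 at 96.5, Cd14 at 89.7 and Cd68 at 85.8. Adgre1 lay at 87.2, Itgam at 73.2 and Fcgr1 at 66.3. Of the classical monocyte markers F13a1 lay at 96.7, Chil3 at 96.5 and Fn1 at 95.2, but Vcan at 27.5. Of the non-classical ones Cd36 lay at 94.2, Nr4a1 at 81.0, Ace at 60.3 and Spn at 52.3. Markers of cells that are not blood cells were high too: the hepatocyte gene Alb (albumin) lay at percentile 92.3 and the tissue macrophage genes C1qa and Vsig4 at 91.9 and 77.0, while the Kupffer cell gene Clec4f lay at 42.5. Alb was at a log2 signal of 10 or above in 116 of 240 mice of the dose-time set, 61 of 226 of the sex-treatment set, 23 of 50 of the small treatment set and 3 of 18 of the small 7 day set. At 120 and 168 hr this held for every mouse given 450 cGy or more. In whole blood a drop in a transcript can mean fewer cells that carry it, less of it in each cell or a larger share of RNA from other cells. These cannot be told apart.

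In unirradiated mice of the dose-time set the receptors already differed between bleeding times. The 6 group means ran from 8.0 to 9.17 for Ccr2, from 6.42 to 7.05 for Cx3cr1 and from 9.48 to 10.93 for Csf1r, while the SD within these groups of 5 ran up to 0.54, 0.27 and 0.67. Each irradiated group was therefore read against the 0 cGy mice of its own time.

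**Figure D1:**
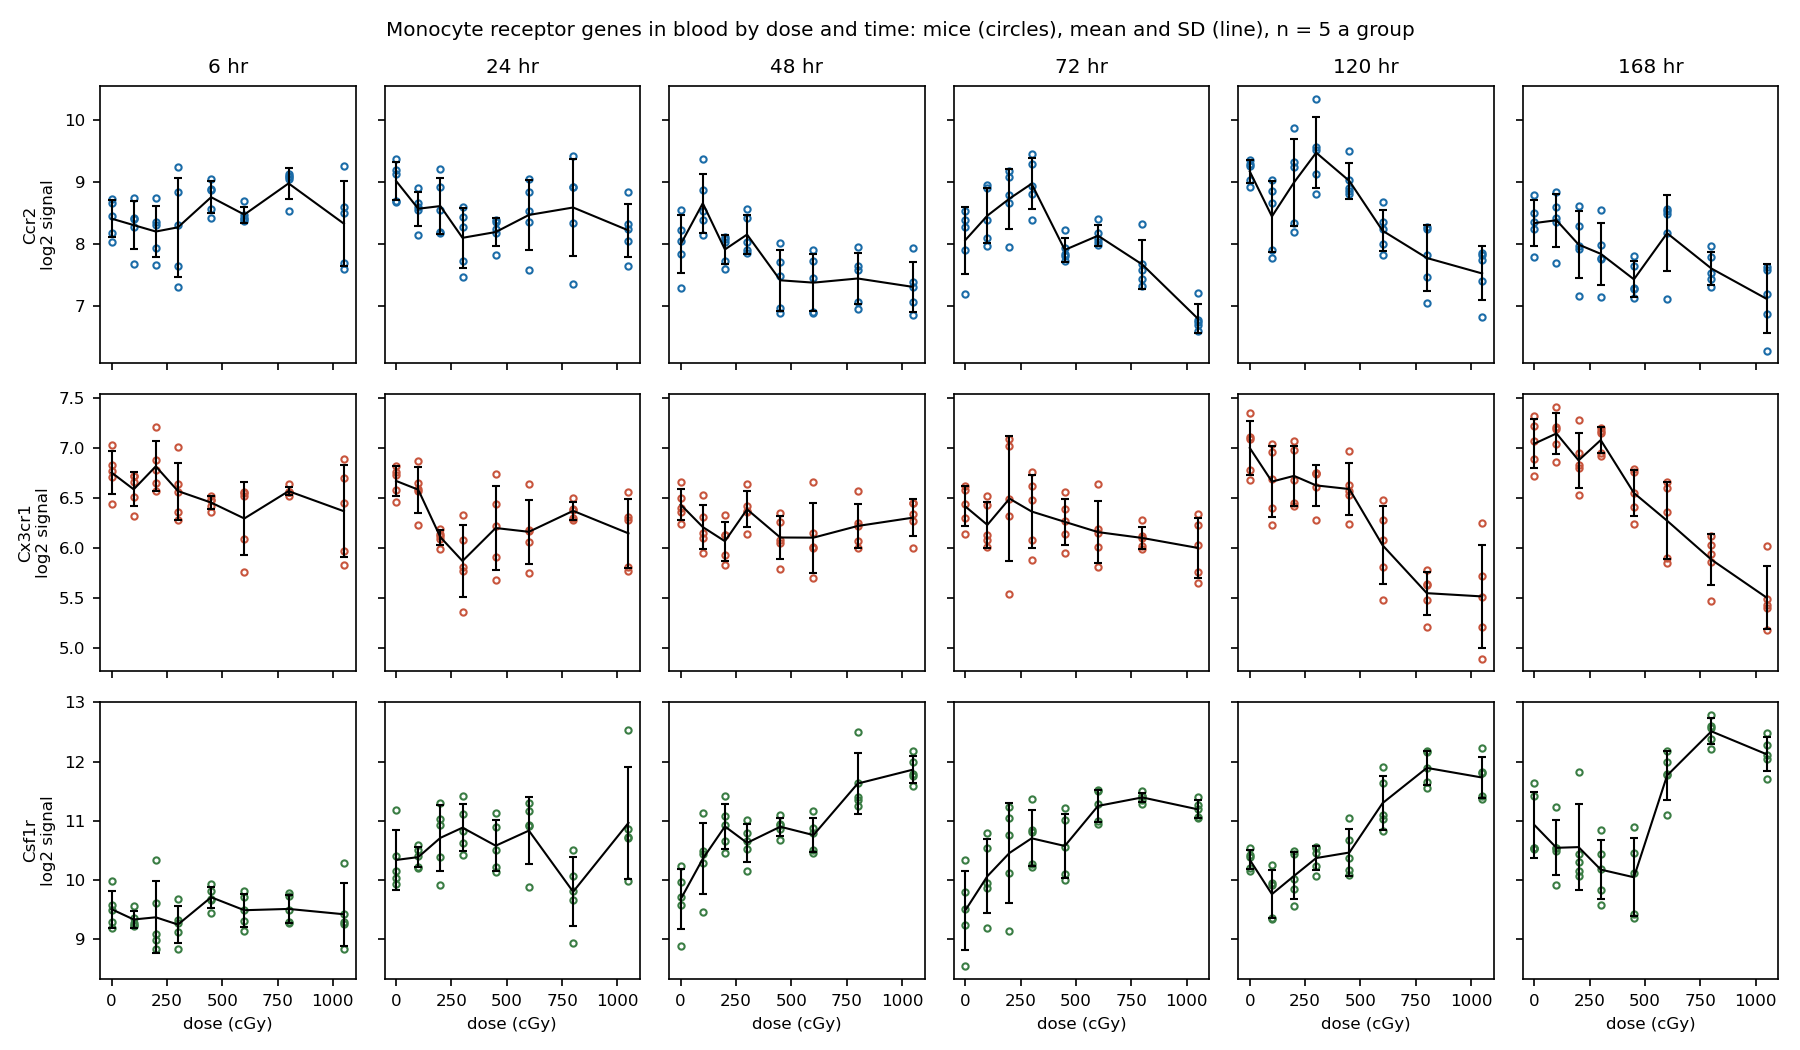
Log2 signal of Ccr2, Cx3cr1 and Csf1r (from top to bottom) against dose in cGy at 6 to 168 hr (from left to right) in the 240 mice of the dose-time set; circles are mice and the line joins group means with bars of 1 SD (5 mice a group). From 48 hr Csf1r climbs with dose, whereas Ccr2 falls at the highest doses and Cx3cr1 falls at 120 and 168 hr.

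After irradiation the 3 receptors parted ways. Csf1r rose with dose from 48 hr on, Ccr2 fell with dose from 48 hr on, and Cx3cr1 fell most clearly at 120 and 168 hr. A dose trend here is the straight-line slope over the 8 group means, in log2 units per 100 cGy, from limma, and a gene is called where its p adjusted over 12393 genes is under 0.05. Members called, of 3, numbered 1 at 6 hr (34.7% of all genes called), 0 at 24 hr (38.7%), 2 at 48 hr (47.3%), 3 at 72 hr (53.4%), 3 at 120 hr (82.4%) and 3 at 168 hr (82.2%). With so many genes called at 120 and 168 hr, being called there does not set a gene apart. Over the doses 0, 200, 300 and 600 cGy alone, Ccr2 stayed called at 120 hr but not at 48, 72 or 168 hr. At 24 hr limma called no member, and 6103 of all genes had an unadjusted p under 0.05. The slopes differed between the 6 times for all 3 members (92.3% of all genes), with F = 11.3 for Ccr2, 26.6 for Cx3cr1 and 18.01 for Csf1r (adjusted p = 2.35e-09, 9.64e-20 and 3.32e-14).

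Csf1r, the growth factor receptor, showed the earliest and largest rise. At 48 hr the 0 cGy mice were at 8.87, 9.57, 9.71, 9.96 and 10.22, and the 1050 cGy mice at 11.59, 11.75, 11.80, 12.00 and 12.18. The groups did not overlap, and at 5 of the 7 doses every irradiated mouse lay above every unirradiated mouse, as did 33 of the 35 irradiated mice in all. The mean rose from 9.67 to 11.86, a difference of 2.19 ± 0.29 (SE), or 4.58-fold, and the slope was 0.17 ± 0.02 per 100 cGy (adjusted p = 3.54e-13).

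At 72 hr the 0 cGy mice had Csf1r at 8.53, 9.24, 9.50, 9.78 and 10.34, and the 1050 cGy mice at 11.04, 11.06, 11.20, 11.26 and 11.40. The ranges again stood apart, as they did at 3 of the 7 doses. The slope was 0.16 ± 0.02 (adjusted p = 1.73e-11), and the differences at 600, 800 and 1050 cGy were 1.77, 1.91 and 1.71 (SE 0.29), and the means at these 3 doses differed by less than this SE.

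At 120 hr the rise in Csf1r came at the upper doses. The 0 cGy mice were at 10.14, 10.21, 10.39, 10.41 and 10.53, and the 600 cGy mice at 10.82, 11.03, 11.09, 11.64 and 11.90. The 1050 cGy mice were at 11.36, 11.42, 11.81, 11.82 and 12.23. Every mouse given 600, 800 or 1050 cGy lay above every unirradiated mouse, whereas at 100 cGy the mean was 9.75 and at 200 cGy 10.06, under the 10.34 of the unirradiated mice. The slope was 0.20 ± 0.02 (adjusted p = 7.25e-17).

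At 168 hr the same receptor was again high at the upper doses. The 0 cGy mice were at 10.51, 10.53, 10.53, 11.42 and 11.64, the 450 cGy mice at 9.35, 9.41, 10.11, 10.45 and 10.89, and the 800 cGy mice at 12.21, 12.38, 12.57, 12.60 and 12.80. The 450 cGy mice overlapped the unirradiated mice from below and the 800 cGy mice stood wholly above them. Of the 35 irradiated mice 15 lay above all 5 unirradiated mice and 14 below all of them, a split that the single slope of 0.19 ± 0.02 (adjusted p = 6.9e-16) does not show. Over the 48 groups the highest Csf1r mean was 12.51 ± 0.22 (SD, n = 5) at 800 cGy and 168 hr, followed by 12.12 ± 0.29 at 1050 cGy and 168 hr and 11.89 ± 0.29 at 800 cGy and 120 hr, and the ranges of these neighbours overlapped. The 4 lowest means, 9.24 to 9.41, were all irradiated groups at 6 hr.

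Ccr2, the chemokine receptor of classical monocytes, moved the other way. At 48 hr the 0 cGy mice were at 7.30, 7.84, 8.06, 8.23 and 8.56 and the 1050 cGy mice at 6.85, 7.07, 7.30, 7.38 and 7.94. These ranges overlapped, though the slope of -0.10 ± 0.02 passed the test (adjusted p = 5e-06) and the 1050 cGy mean was lower by 1.61-fold.

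At 72 hr Ccr2 was not low at every dose. The 0 cGy mice were at 7.20, 7.90, 8.28, 8.39 and 8.54, the 300 cGy mice at 8.39, 8.80, 8.94, 9.28 and 9.45, and the 1050 cGy mice at 6.60, 6.69, 6.74, 6.77 and 7.21. At 4 of the 7 doses the mean lay above that of the unirradiated mice, and only at 1050 cGy did 4 of 5 mice lie below all of them. The slope was -0.14 ± 0.02 (adjusted p = 2.86e-10), and the differences from 0 cGy were 0.07 at 600, -0.39 at 800 and -1.26 at 1050 cGy (SE 0.28). With the doses 0, 200, 300 and 600 cGy alone the slope was -0.00 (adjusted p = 0.974), so the call did not hold over these 4 doses.

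At 120 hr the fall in Ccr2 was clearest. The 0 cGy mice were at 8.92, 9.03, 9.26, 9.29 and 9.36, the 600 cGy mice at 7.82, 8.01, 8.24, 8.35 and 8.67, and the 1050 cGy mice at 6.82, 7.40, 7.74, 7.82 and 7.86. At 600, 800 and 1050 cGy every mouse lay below every unirradiated mouse, while the 300 cGy mean of 9.47 ± 0.58 (SD, n = 5) was the highest of the 48 groups. The 1050 cGy mean was lower by 1.65 ± 0.28 on the log2 scale, or 3.13-fold, and the slope was -0.16 ± 0.02 (adjusted p = 7.16e-12).

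At 168 hr the 0 cGy mice had Ccr2 at 7.79, 8.25, 8.36, 8.51 and 8.79 and the 1050 cGy mice at 6.28, 6.88, 7.20, 7.58 and 7.64. Only at 1050 cGy, of the 7 doses, did the irradiated mice lie wholly below. The slope was -0.10 ± 0.02 (adjusted p = 4.82e-06), but -0.02 (adjusted p = 0.741) with the doses 0, 200, 300 and 600 cGy alone. Over the 48 groups the lowest Ccr2 means were 6.80 ± 0.24 at 72 hr, 7.12 ± 0.56 at 168 hr and 7.31 ± 0.41 at 48 hr, all at 1050 cGy (SD, n = 5), with overlapping ranges.

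Cx3cr1, the receptor of non-classical monocytes and NK cells, fell late. At 120 hr the 0 cGy mice were at 6.68, 6.78, 7.09, 7.11 and 7.36, the 600 cGy mice at 5.48, 5.81, 6.08, 6.28 and 6.48, and the 1050 cGy mice at 4.89, 5.21, 5.51, 5.72 and 6.25. At 600, 800 and 1050 cGy all mice lay below all unirradiated mice, and no dose had a mean above theirs. The 1050 cGy mean was lower by 1.49 ± 0.18 on the log2 scale, or 2.80-fold, with a slope of -0.15 ± 0.01 (adjusted p = 4.81e-22).

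At 168 hr the 0 cGy mice had Cx3cr1 at 6.72, 6.89, 7.07, 7.22 and 7.32, the 450 cGy mice at 6.25, 6.41, 6.56, 6.76 and 6.79, and the 1050 cGy mice at 5.18, 5.40, 5.43, 5.49 and 6.03. The 450 cGy mice overlapped the unirradiated ones and those given 600, 800 and 1050 cGy did not. At 100, 200 and 300 cGy the means were 7.15, 6.88 and 7.08 against 7.05 without irradiation, and the mice of these doses overlapped the unirradiated mice. The slope was -0.16 ± 0.01 (adjusted p = 3.64e-25), and the 1050 cGy mean was lower by 2.91-fold. The 3 lowest group means, 5.50 at 1050 cGy and 168 hr and 5.52 and 5.55 at 1050 and 800 cGy and 120 hr, did not differ beyond their spread. On the dim probe set of Cx3cr1 the slope was -0.04 at 120 hr (adjusted p = 0.000839) and -0.02 at 168 hr (adjusted p = 0.111).

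Before 120 hr the Cx3cr1 slopes were small: -0.03 at 6 hr (adjusted p = 0.0318), -0.03 at 24 hr (0.0928), -0.01 at 48 hr (0.788) and -0.04 at 72 hr (0.00745). The call at 6 hr ended when any of 3 of the 5 mice of each group was left out (adjusted p = 0.0612 to 0.183), and the slope turned to 0.02 on the dim probe set (adjusted p = 0.101). The call at 72 hr ended without the second mouse of each group (slope -0.03, adjusted p = 0.0785) and on the dim probe set (-0.01, adjusted p = 0.662). Ccr2 and Csf1r had slopes of 0.03 and 0.01 at 6 hr and of -0.04 and 0.01 at 24 hr, none of which passed the test.

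At 24 hr the receptors nonetheless differed between doses in a way that a slope does not capture. The 0 cGy mice had Cx3cr1 at 6.47, 6.58, 6.73, 6.76 and 6.82 and the 300 cGy mice at 5.36, 5.77, 5.81, 6.08 and 6.34. The ranges did not overlap, and the means at 300 and 1050 cGy were 5.87 and 6.15, so the lowest level was at a middle dose. For Ccr2 the 0 cGy mice were at 8.68, 8.69, 9.14, 9.20 and 9.37 and the 300 cGy mice at 7.47, 7.72, 8.28, 8.44 and 8.59, again without overlap. All 7 irradiated means of both genes lay below that of the unirradiated mice. Markers of other cells were high in the 300 cGy mice. Alb lay between 14.04 and 14.50 in them and between 5.49 and 13.70 in the unirradiated mice. The mean of 13 tissue macrophage genes lay between 8.02 and 8.94 and between 6.72 and 7.71. At 100 cGy Ccr2 lay between 8.14 and 8.90 and Cx3cr1 between 6.23 and 6.88, and both overlapped the unirradiated mice. There Alb lay between 4.98 and 7.55 and the macrophage mean between 5.69 and 7.63. The part of these other cells in the result was not tested beyond the fits given for the F test at this time. On a log2 dose scale, which weights the first steps more, the slopes passed the test for Ccr2 (-0.17 per log2 step, adjusted p = 0.0282) and Cx3cr1 (-0.13, adjusted p = 0.00806).

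An F test over the 7 differences from 0 cGy asks for any difference between doses. It called 0 of the 3 members at 6 hr (46.4% of all genes), where limma gave Ccr2 an adjusted p of 0.144, Cx3cr1 0.108 and Csf1r 0.923. It called 2 at 24 hr (59.4%), namely Cx3cr1 (F = 4.34, adjusted p = 0.000578) and Csf1r (F = 3.56, adjusted p = 0.0033), while Ccr2 had an adjusted p of 0.0534. The call of Cx3cr1 at 24 hr ended on the dim probe set (F = 0.38, adjusted p = 0.925), without the mice with Alb at 10 or above (F = 2.17, adjusted p = 0.188) and with the macrophage mean as a covariate (F = 1.69, adjusted p = 0.142). The call of Csf1r at 24 hr ended without the 800 cGy mice (F = 1.48, adjusted p = 0.248), whose mean of 9.79 stood below the others, and when the second or the fourth mouse of each group was left out (adjusted p = 0.127 and 0.0507). It called 2 at 48 hr (56.3%) and 2 at 72 hr (59%), Ccr2 and Csf1r at both times, and 3 each at 120 hr (95.7%) and 168 hr (94.5%).

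**Figure D2:**
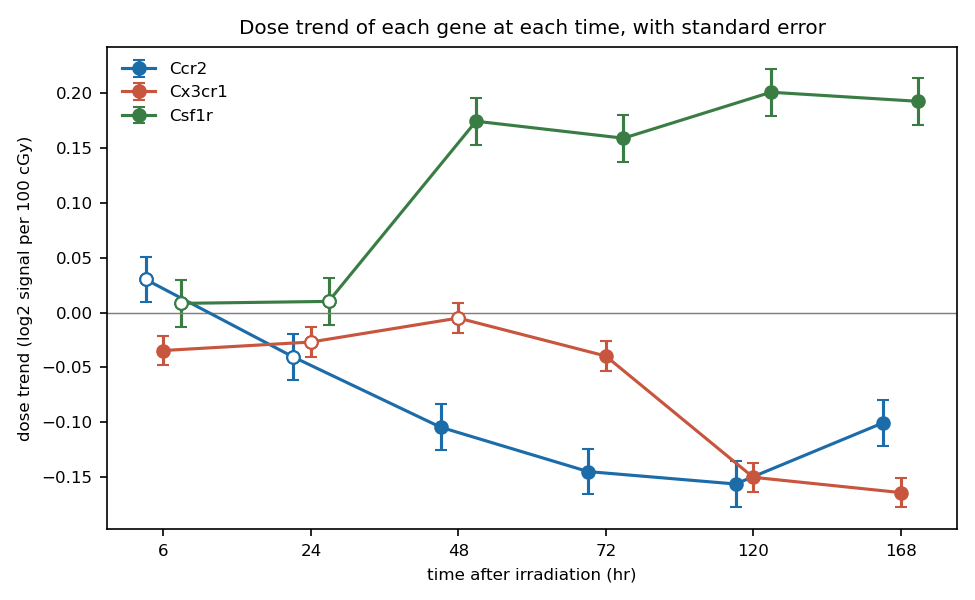
Slope of log2 signal on dose (per 100 cGy, ± SE) for each receptor against hours after irradiation in the dose-time set; filled points have an adjusted p under 0.05 and open points do not. The slope of Csf1r is 0.16 to 0.20 from 48 hr, that of Ccr2 lies between -0.10 and -0.16, and that of Cx3cr1 reaches -0.15 and -0.16 at 120 and 168 hr.

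The titles of the dose-time set carry 5 codes, each holding 1 mouse of every group, so each trend could be read within each code. The slope of Csf1r was above 0 in 5 of 5 codes at 48, 72, 120 and 168 hr (0.12 to 0.22), and that of Ccr2 was below 0 in 5 of 5 at the same times (-0.23 to -0.04). The slope of Cx3cr1 was below 0 in 5 of 5 at 6, 120 and 168 hr. What the codes stand for is not in the labels.

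Because all 3 receptors were read on the same array, their difference within a mouse leaves out whatever scales an array as a whole. The slope of Ccr2 minus Csf1r was -0.28, -0.30, -0.36 and -0.29 per 100 cGy at 48, 72, 120 and 168 hr, over 40 mice each (2-sided permutation p = 1e-05, the smallest that the permutations can give, adjusted p = 2.25e-05 over 18 comparisons). The same p held for Cx3cr1 minus Csf1r, with slopes of -0.18, -0.20, -0.35 and -0.36. Both chemokine receptors thus fell against the growth factor receptor at these 4 times.

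Between the chemokine receptors the order changed with time. Ccr2 fell more steeply than Cx3cr1 at 48 and 72 hr, with slopes of the difference of -0.10 and -0.11 (permutation, adjusted p = 0.00102 and 0.0014). At 120 hr the difference had a slope of -0.01 (permutation, adjusted p = 0.814). At 168 hr Cx3cr1 fell more steeply, with a slope of 0.06 (permutation, adjusted p = 0.0196, and 0.0841 on a log2 dose scale).

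Within groups of the same dose and time the receptors could also be followed from mouse to mouse, after each mouse's group mean was taken off. Ccr2 and Csf1r went together, with r = 0.32 and rho = 0.28 over 240 mice of the dose-time set and r = 0.47 and rho = 0.44 over 226 mice of the sex-treatment set (permutation, adjusted p over 6 relations = 6e-05 for each r, and 0.00015 and 6e-05 for rho). Within the 5 title codes of the dose-time set r ran from 0.11 to 0.46, and it was 0.34 without the 2 mice farthest from the median. In the sex-treatment set it was 0.48 in the code with 217 mice and -0.21 in the code with 9. Cx3cr1 and Csf1r had r = -0.17 in the dose-time set (permutation, adjusted p = 0.0711), and Ccr2 and Cx3cr1 had r = 0.10 (0.298). Ccr2 and Csf1r, which moved in opposite directions with dose, thus varied together among mice treated alike.

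Of 5 ligands of the chemokine receptors measured (Ccl2, Ccl7, Ccl8, Ccl12 and Cx3cl1), 0 fell at 6 to 72 hr, 3 fell at 120 hr and 2 fell at 168 hr (47.0% and 46.6% of all genes), and the median slope stayed within -0.03 and 0.03. Cx3cl1, the ligand of Cx3cr1, fell at both late times (slopes -0.12 and -0.11, adjusted p = 1.19e-14 and 4.47e-14), as did Ccl8 (-0.07 and -0.09). Ccl2, the chief ligand of Ccr2, rose at 6 and 24 hr (0.04 each, adjusted p = 0.00277 and 0.00402) and fell at 120 hr (-0.03, adjusted p = 0.0296).

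Of the growth factors that bind Csf1r, Csf1 rose at 48 hr with a slope of 0.14 (adjusted p = 4.06e-17), the first time at which the receptor rose. At 168 hr Csf1 fell (-0.04, adjusted p = 0.00396) and Il34 fell at 120 and 168 hr (-0.12 and -0.13), while the slope of the receptor stayed positive. Of the other chemokine receptors of monocytes Ccr1, a receptor for inflammatory chemokines, rose at 48 to 168 hr (slopes 0.10 to 0.16), and Cxcr4, which holds cells in the marrow, fell at 72, 120 and 168 hr (-0.20, -0.31 and -0.36).

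Counts of called genes in a list are read against the shares of all genes called in the same direction, which were 24.0%, 26.3%, 35.4% and 35.5% rising and 23.3%, 27.1%, 47.0% and 46.6% falling at 48, 72, 120 and 168 hr. Most genes of monocytes in general rose, as Csf1r did. Of 17 measured, 15 rose at 48, 72 and 120 hr and 14 at 168 hr, with 0, 1, 1 and 0 falling, and the median slope was 0.18 to 0.20 against -0.02 to -0.00 over all genes. Cd68, a lysosomal protein of phagocytes, rose with slopes of 0.26, 0.34, 0.41 and 0.30, and Cd14, the LPS co-receptor, with 0.26, 0.35, 0.47 and 0.39. Lyz2, lysozyme, rose less, with 0.03, 0.06, 0.13 and 0.12.

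The list of classical monocyte genes, the kind known by Ccr2, held genes called in both directions. Of 12 measured, 4 to 5 rose and 4 to 6 fell at each time from 48 hr, which at 120 and 168 hr lay near the shares of all genes. Plac8 and Ms4a6b fell like Ccr2 (slopes -0.28, -0.34, -0.29 and -0.19 for Plac8 and -0.33, -0.40, -0.31 and -0.24 for Ms4a6b), whereas Ifitm3, an interferon-induced membrane protein, rose (0.12, 0.16, 0.20 and 0.17). Ly6c2, a defining gene of these cells, was not analysed here.

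Most genes of the non-classical list fell at 120 and 168 hr, when Cx3cr1 fell. Of 13 measured, 4 were called up and 4 down at 48 hr, 4 up and 3 down at 72 hr, 3 up and 9 down at 120 hr, and 3 up and 10 down at 168 hr. The median slope was -0.11 and -0.13 at the late times. Nr4a1, the transcription factor on which these cells depend, had slopes of -0.16 and -0.27 (adjusted p = 4.15e-14 and 7.52e-31), and the scavenger receptor Cd36 had -0.31 and -0.34. Falls were common among all genes at those times too.

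Of 12 transcription factors of the monocyte line, 8, 8, 9 and 7 rose at 48, 72, 120 and 168 hr and 1, 1, 2 and 2 fell. Spi1 rose (0.27, 0.18, 0.19 and 0.21), as did Cebpb (0.18, 0.21, 0.28 and 0.26), while Irf8, which acts with Spi1 in monocyte precursors, fell (-0.07, -0.07, -0.10 and -0.08). Of 15 signalling genes downstream of Csf1r, 11, 10, 8 and 6 rose and 0, 1, 3 and 4 fell, and the 6 at 168 hr lay near the share of all genes. Among those that rose were the kinases Akt1 (0.17 to 0.26) and Fes (0.15 to 0.21).

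By the pattern over the 48 group means of the dose-time set, the genes most like each receptor were ranked by Pearson's r, which is a description and carries no p, since the groups share doses and times. Nearest to Csf1r were Man2b1 (r = 0.97), Reep3 (0.96), Adgre1, the F4/80 antigen of macrophages (0.96), Hgsnat (0.96), Arsa (0.96), Ampd2 (0.95), Mfsd5 (0.95) and Klf9 (0.95). Their r over the 48 group means of the sex-treatment set was 0.74 to 0.90, except 0.24 for Klf9. Man2b1, Hgsnat and Arsa encode lysosomal enzymes or membrane proteins.

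Nearest to Ccr2 were Plac8 (0.82), Ms4a6c (0.81), Ms4a6b (0.80), Sh2d1a (0.74), St8sia4 (0.74), Ms4a4c (0.74), Myb (0.74) and Psip1 (0.73). In the sex-treatment set St8sia4 (0.77), Ms4a6c (0.68) and Ms4a6b (0.58) stayed close and Plac8 (-0.03), Ms4a4c (0.05) and Myb (-0.17) did not. Plac8, Ms4a6c and Ms4a6b were in the list of classical monocyte genes.

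Nearest to Cx3cr1 were Eno3 (0.89), Arl2bp (0.88), Rab21 (0.88), Ace (0.88), Havcr2 (0.88), Ube2r2 (0.87), L1cam (0.87) and Ccni (0.86), and in the sex-treatment set their r was -0.11 to 0.56, highest for Ace. Eno3 and Ace were in the list of non-classical monocyte genes. Between the members themselves the r over the group means of the dose-time set was 0.51 for Ccr2 and Cx3cr1, -0.51 for Ccr2 and Csf1r and -0.61 for Cx3cr1 and Csf1r. In the sex-treatment set, which stops at 24 hr, the r of Ccr2 and Csf1r was 0.69.

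Markers of tissue macrophages, which carry Csf1r, and of hepatocytes were read against dose too. Of 13 tissue macrophage genes 11, 11, 11 and 12 rose with dose at 48, 72, 120 and 168 hr, and 0, 1, 0 and 0 fell. The mean of the 13 ran from 5.56 to 7.93 in mice given up to 300 cGy and from 8.31 to 9.75 in mice given 600 cGy or more at 120 hr, and from 5.88 to 8.80 and from 8.75 to 9.98 at 168 hr. Clec4f, which marks Kupffer cells of the liver, ran from 4.96 to 6.15 and from 6.41 to 8.98 at 120 hr. At 168 hr its ranges overlapped, from 5.11 to 6.33 and from 5.18 to 8.61. All 10 hepatocyte genes measured rose at 120 and 168 hr (Alb slopes 0.97 and 0.78). At 48 and 72 hr 0 of the 10 hepatocyte genes passed the test in limma. Alb was nonetheless at 10 or above at 48 hr in 3 of 5 mice given 0 cGy and 4 of 5 given 1050 cGy.

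**Figure D3:**
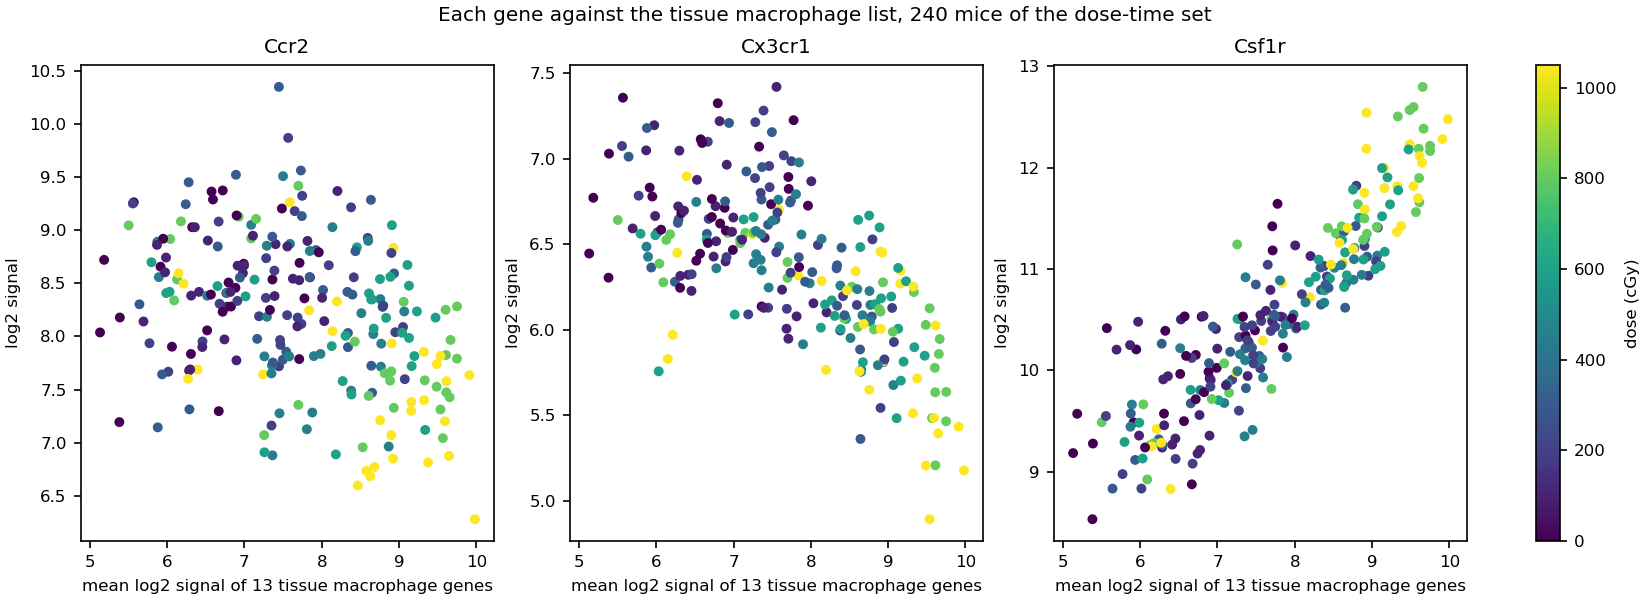
Log2 signal of each receptor against the mean log2 signal of 13 tissue macrophage genes in the 240 mice of the dose-time set, coloured by dose in cGy. Csf1r climbs with the macrophage mean across the mice, and the mice highest in both were given 600 cGy or more.

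With the macrophage mean of each mouse as a covariate, an alternative chosen after the data were seen, the Csf1r slope was 0.09 at 48 hr (adjusted p = 3e-07) and 0.05 at 72 hr (0.0158), and the calls ended at 120 hr (0.01, adjusted p = 0.761) and 168 hr (0.03, adjusted p = 0.113). The Ccr2 slopes were then -0.13, -0.18, -0.21 and -0.14, and those of Cx3cr1 -0.09 at 120 hr and -0.11 at 168 hr, all still past the test. The Cx3cr1 call at 72 hr ended (-0.00, adjusted p = 0.933). Within groups, Csf1r followed the macrophage mean with r = 0.72 and rho = 0.73 over 240 mice (permutation, adjusted p = 2.25e-05 over 9 relations, r from 0.70 to 0.81 within title codes), Ccr2 followed it with r = 0.20 and Cx3cr1 with r = -0.39. Csf1r is itself a gene of tissue macrophages, and the part of those cells in its rise was not tested beyond these values.

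With the Alb level as the covariate every called slope of the 3 receptors at 48 to 168 hr passed the test, and the Csf1r slopes were 0.17, 0.15, 0.13 and 0.14. Leaving out the mice with Alb at 10 or above removed every mouse of 450 cGy and more at 120 and 168 hr. Among the mice of 0 to 300 cGy that remained, the 120 hr slopes were 0.14 for Ccr2, -0.11 for Cx3cr1 and 0.03 for Csf1r (adjusted p = 0.233, 0.0614 and 0.773). At 168 hr they were -0.23 for Ccr2 (0.0345), -0.01 for Cx3cr1 (0.83) and -0.24 for Csf1r (0.0105), so that Csf1r fell over the low doses.

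NK cells also carry Cx3cr1 in blood, and the list of their genes held genes called in both directions. Of 12 genes 5 were called up and 5 down at 120 hr, near the shares of all genes (35.4% up and 47.0% down). At 168 hr 7 were called up and 2 down (35.5% and 46.6% of all genes). Klrd1 fell (-0.29 and -0.20) and Gzmb rose (0.20 each), and Ncr1, the marker that defines them, had slopes of -0.05 (adjusted p = 0.0228) and 0.01 (0.601). With the mean of the NK list as covariate the Cx3cr1 slopes were -0.15 and -0.17, still past the test. The Ccr2 calls at 48 to 168 hr held with this covariate too. Within groups of the dose-time set Ccr2 followed the NK mean with r = 0.46, and Cx3cr1 with r = 0.35. The part of NK cells in the fall of Ccr2 was not tested further.

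The sex-treatment set asked how the receptors respond when GCSF or LPS accompanies irradiation. LPS lowered all 3 receptors at 6 hr in unirradiated mice, Ccr2 the most. Without an agent Ccr2 ran from 9.43 over a median of 11.06 to 11.70 in 10 mice, and with LPS from 6.94 over 8.35 to 10.40 in 8 mice. The ranges overlapped at their ends, and the difference, averaged over the sexes, was -2.38 ± 0.37, or 5.21-fold lower (adjusted p = 3.74e-08).

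Cx3cr1 ran from 6.60 over 7.26 to 8.50 without an agent and from 5.88 over 6.19 to 6.78 with LPS, a difference of -1.22 ± 0.15 or 2.34-fold (adjusted p = 1.37e-11). Csf1r ran from 9.57 over 10.59 to 11.96 and from 7.88 over 9.26 to 10.33, a difference of -1.50 ± 0.30 or 2.82-fold (adjusted p = 2.99e-05). So 3 of 3 members were called lower (35.2% of all genes called). Over both sexes and all 4 doses LPS gave the lower mean in 8 of 8 comparisons for Ccr2 and for Csf1r, and in 6 of 8 for Cx3cr1. On the dim probe set the Cx3cr1 difference was -0.17 (adjusted p = 0.244).

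The small treatment set gave the same directions at 6 hr in other mice. Ccr2 ran from 8.85 over 10.01 to 10.70 in 6 mice without an agent and from 6.63 over 7.08 to 7.57 in 6 mice with LPS, with no overlap. The differences were -2.77 ± 0.30 for Ccr2, -0.91 ± 0.18 for Cx3cr1 and -1.63 ± 0.19 for Csf1r (adjusted p = 6.61e-10, 0.000132 and 4.47e-09), 3 of 3 called (26.2% of all genes). Csf1r with LPS, from 8.15 to 9.67, lay below the 10.19 to 11.01 of the mice without an agent.

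At 6 hr under LPS 14.8% of all genes rose and 20.5% fell. While the receptors fell their chemokine ligands rose. Ccl2 rose by 2.15, Ccl12 by 2.27 and Ccl7 by 1.26 at 6 hr under LPS, and Cx3cl1 by 0.49. In the small treatment set Ccl2 rose by 2.90, Ccl12 by 4.15 and Ccl7 by 1.56. Of the general monocyte genes 2 rose and 7 fell of 17 at 6 hr, with Cd68 at -1.20 and Lyz2 at -0.81, and of the classical genes 3 rose and 5 fell of 12. The NK genes fell too, 5 of 12 with 1 rising (Ncr1 -0.89), as did 8 of 9 B cell and 8 of 10 T cell genes, while 6 of 9 neutrophil genes rose. How far a changed mixture of blood cells enters the receptor values was not tested.

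At 24 hr after LPS members called lower in unirradiated mice were 2 of 3 (21.9% of all genes called): Ccr2 by -1.30 ± 0.35 (2.46-fold, adjusted p = 0.00221) and Cx3cr1 by -0.43 ± 0.14 (1.35-fold, adjusted p = 0.0194). Csf1r differed by 0.32 ± 0.29 (adjusted p = 0.526). For Ccr2 the difference was -1.94 in females and -0.66 in males. Over both sexes and all 4 doses the LPS mean was lower in 4 of 8 comparisons for Ccr2 (-1.94 to 0.75), 5 of 8 for Cx3cr1 and 2 of 8 for Csf1r. On other probe sets neither call held (Ccr2 -0.69, adjusted p = 0.0731; Cx3cr1 -0.16, adjusted p = 0.409), and that of Cx3cr1 ended without the first, the second or the fifth mouse of each group (adjusted p = 0.0667 to 0.127). At this time 11 of 17 general monocyte genes were called up and 0 down (9.2% and 12.7% of all genes), Ccl2 was higher by 3.16 and Spi1 by 1.64.

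After GCSF alone no receptor passed the test in unirradiated mice. At 6 hr the differences were -0.23, -0.25 and 0.25 for Ccr2, Cx3cr1 and Csf1r, and limma called 0 members and 0 of all genes (0% called, 283 genes with an unadjusted p under 0.05). At 24 hr they were -0.17, -0.02 and 0.05, 0 of 3 called (0.549% of all genes called in limma). In the small treatment set they were 0.03, 0.01 and 0.32, 0 of 3 called (0.549%).

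**Figure D4:**
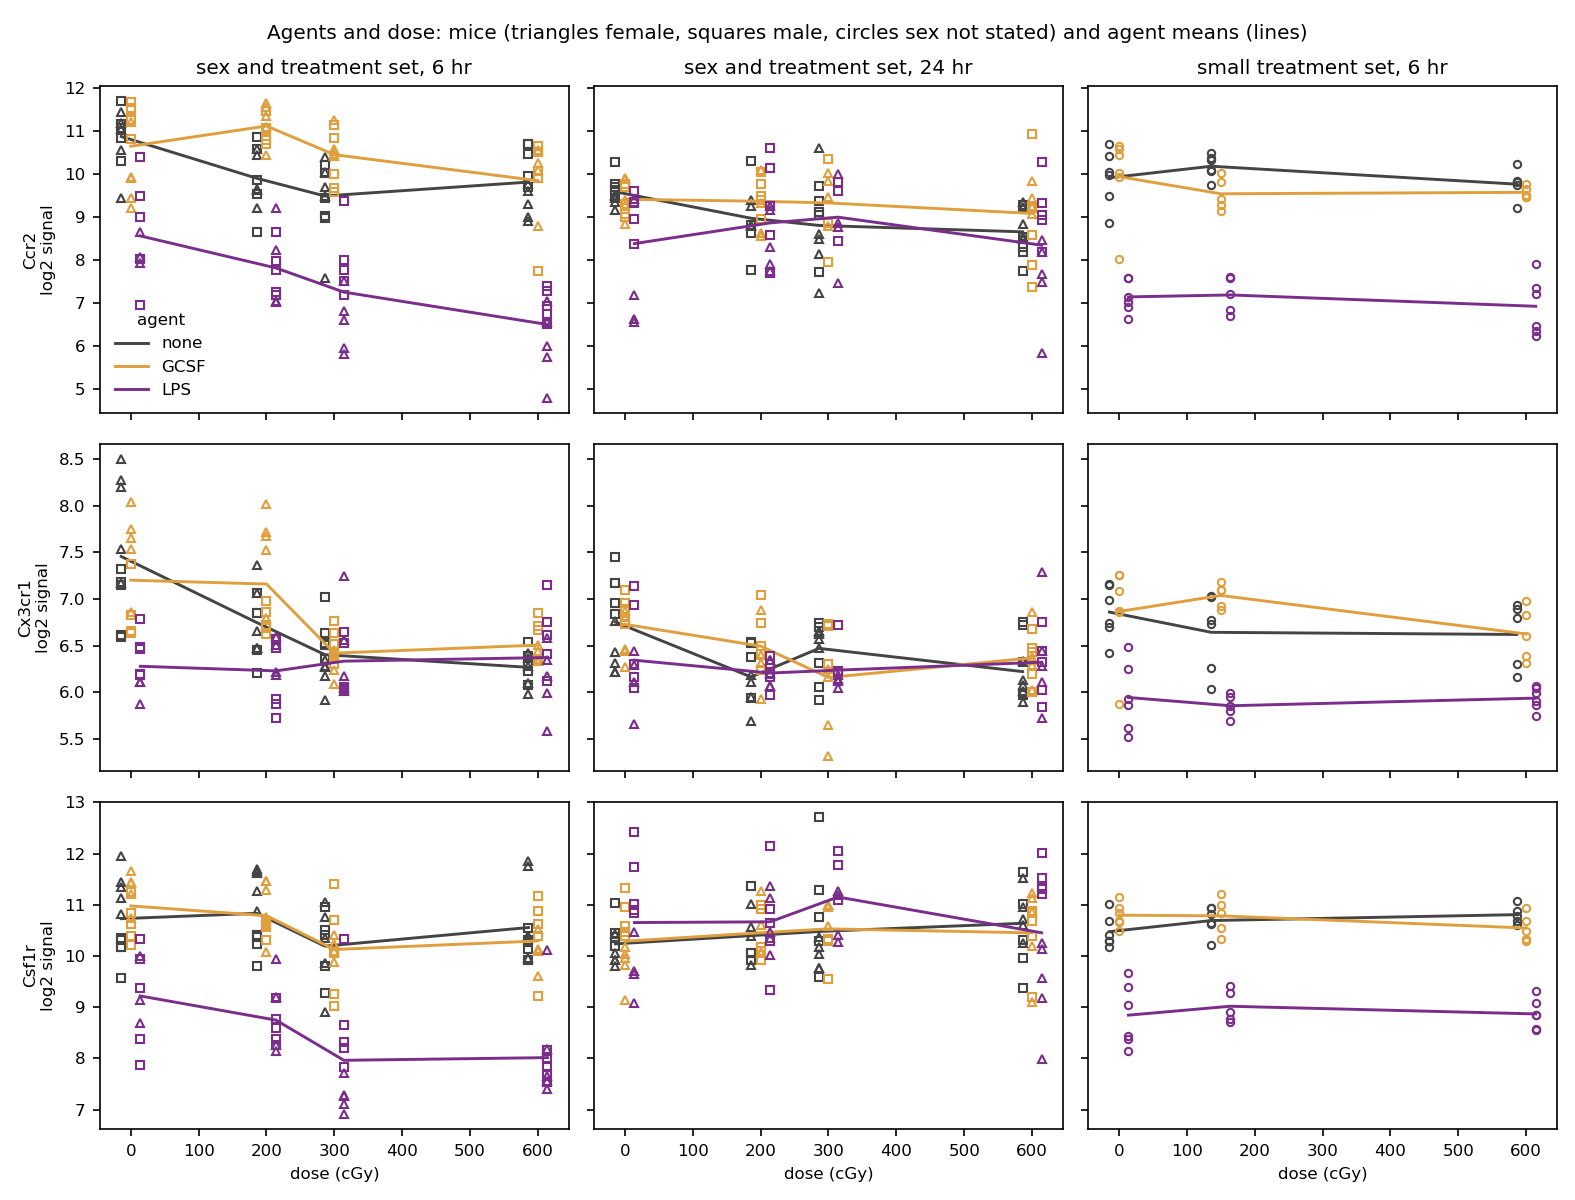
Log2 signal of each receptor (from top to bottom) against dose in cGy in the sex-treatment set at 6 hr and 24 hr and in the small treatment set at 6 hr (from left to right), by agent; triangles are females, squares males, circles mice of unstated sex, and lines join the means of an agent. The LPS mice lie lowest for Ccr2 and Csf1r at 6 hr in both sets, and the agents lie closer together at 24 hr.

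Dose trends under each agent were fitted over 0, 200, 300 and 600 cGy. At 6 hr without an agent 2 of 3 members were called (19.9% of all genes), Ccr2 with a slope of -0.16 (adjusted p = 0.0235) and Cx3cr1 with -0.19 (5.34e-12), while Csf1r had -0.04 (0.524). Cx3cr1 ran from 6.60 over 7.26 to 8.50 at 0 cGy and from 5.98 over 6.29 to 6.54 at 600 cGy, 10 mice each, without overlap. All 6 irradiated means lay below those of their controls for Ccr2 and for Cx3cr1. The mice did not overlap their controls in 1 of these 6 groups for Ccr2 and in 3 for Cx3cr1. On the dim probe set the Cx3cr1 slope was -0.01 (adjusted p = 0.844), and the Ccr2 call ended when the first, the second or the fourth mouse of each group was left out (adjusted p = 0.0544 to 0.122).

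At 6 hr under GCSF 3 of 3 members were called (52.6% of all genes), with slopes of -0.16 for Ccr2, -0.13 for Cx3cr1 and -0.13 for Csf1r (adjusted p = 0.0159, 1.79e-06 and 0.0209). For Ccr2 the females differed from their 0 cGy group by 1.28, 0.72 and -0.01 at 200, 300 and 600 cGy and the males by -0.34, -1.11 and -1.58, so 4 of 6 irradiated means lay below their control, and the difference between the sexes was not tested. The Ccr2 call ended without the third or the fourth mouse of each group (adjusted p = 0.0852 and 0.231) and the Csf1r call without the first or the fourth (0.0596 and 0.148), and Cx3cr1 turned to 0.01 on the dim probe set (adjusted p = 0.709). Under LPS 2 of 3 were called (32.2%), Ccr2 with -0.33 (3.34e-06) and Csf1r with -0.21 (0.000502), and Cx3cr1 had 0.03 (0.401). On the other probe set of Csf1r the slope was -0.10 (adjusted p = 0.0611).

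The slopes were then compared between agents. Under LPS the slope of Cx3cr1 was higher than without an agent by 0.22 ± 0.03 (adjusted p = 7.16e-07), 1 of 3 members called (6.45% of all genes). On the dim probe set this difference was 0.04 (adjusted p = 0.522). In the mice given LPS the gene was already low without irradiation, at 6.03 in females and 6.43 in males, against 6.23 and 6.31 at 600 cGy without an agent. For Ccr2 and Csf1r the slopes differed by -0.17 each (adjusted p = 0.242 and 0.134). Between GCSF and no agent 0 of 3 slopes differed at 6 hr (0.0161% of all genes called in limma, 939 with an unadjusted p under 0.05).

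At 24 hr without an agent 2 of 3 members were called (41.2% of all genes), Ccr2 with -0.15 (adjusted p = 0.0237) and Cx3cr1 with -0.07 (0.00656), while Csf1r had 0.07 (0.258). The Ccr2 call ended with mouse number as a replicate block (-0.14, adjusted p = 0.125) and without the first, the second or the third mouse of each group (adjusted p = 0.0502 to 0.156). The Cx3cr1 call ended on the dim probe set (-0.00, adjusted p = 0.972), with the mean of its probe sets (-0.04, 0.0535) and after quantile normalisation (-0.05, 0.105). Without the mice with Alb at 10 or above both calls ended (-0.08 for Cx3cr1 and -0.11 for Ccr2, adjusted p = 0.157 and 0.409). Under GCSF 1 of 3 was called (30.6%), Cx3cr1 with -0.06 (0.0368), a call that ended in 4 of 5 fits that left out a mouse of each group (adjusted p = 0.0505 to 0.188). Under LPS 0 of 3 were called in limma (13%, slopes -0.00 for Ccr2, 0.00 for Cx3cr1 and -0.01 for Csf1r). Neither GCSF (0.00807% of all genes) nor LPS (16.5%) gave a slope that limma called different from that without an agent for any of the 3 members at 24 hr, where LPS minus none was 0.14 for Ccr2 (adjusted p = 0.252) and 0.08 for Cx3cr1 (0.107).

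The sets can be set side by side for mice without an agent at 6 hr, though whether they were normalised together is not in the sources used here. Ccr2 at 0 cGy ran from 8.04 to 8.72 in the dose-time set, from 9.43 to 11.70 in the sex-treatment set and from 8.85 to 10.70 in the small treatment set, so the unirradiated mice of the first set lay below those of both others. The Cx3cr1 slope at 6 hr was -0.03 in the dose-time set and -0.19 in the sex-treatment set, a difference that was not tested because the sets were fitted apart. In the small treatment set 600 minus 0 cGy gave 0 of 3 members called without an agent (7.38% of all genes), under GCSF (25%) and under LPS (16%) in limma, with Cx3cr1 at -0.24, -0.24 and -0.01. In the small 7 day set 150 cGy gave 0 of 3 called at 168 hr in limma (67.1% of all genes), with differences of 0.24 ± 0.34 for Ccr2, 0.19 ± 0.22 for Cx3cr1 and -0.26 ± 0.23 for Csf1r.

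Unirradiated females and males without an agent differed at 6 hr. Cx3cr1 ran from 7.17 over 8.20 to 8.50 in 5 females and from 6.60 over 7.15 to 7.33 in 5 males, and Csf1r from 10.81 over 11.35 to 11.96 and from 9.57 over 10.17 to 10.36, the latter without overlap. Females were higher by 0.96 ± 0.20 for Cx3cr1 (adjusted p = 0.000187) and by 1.22 ± 0.40 for Csf1r (adjusted p = 0.0174), 2 of 3 members called (27.8% of all genes), and Ccr2 differed by -0.29 (0.641). The monocyte marker Cd68 ran from 7.93 to 9.86 in the females and from 7.35 to 8.49 in the males. The Csf1r call ended without the first or the fifth mouse of each group (adjusted p = 0.0631 and 0.0802), and on the dim probe set the Cx3cr1 difference was 0.23 (adjusted p = 0.239).

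At 24 hr the sign for Cx3cr1 was the opposite. It ran from 6.22 over 6.31 to 6.77 in 5 females and from 6.84 over 7.17 to 7.45 in 5 males, without overlap. The difference of -0.73 had an adjusted p of 0.215, and 0 of 3 members were called in limma (0.0726% of all genes). Ccr2 and Csf1r differed by -0.39 and -0.42, each with an adjusted p of 1. Over all sets limma called 0 members in 14 comparisons, in which 283 to 8793 of all genes had an unadjusted p under 0.05. A member had an unadjusted p under 0.05 in 3 of these, and it was Cx3cr1 each time: the trend at 24 hr, the slope under LPS against none at 24 hr and the sexes at 24 hr.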

How the data were processed

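The authors deposited a log2 signal for each probe set, computed from globin-reduced blood RNA, with RMA in the affy package per the submitters' processing notes, whose versions and settings are not given in the sources used here. The deposited log2 values ran from 2.17 to 14.85 with array medians of 5.61 to 5.93. Precision is limited by how many arrays a group has. Of 22690 probe sets, 64 controls, 1555 with no symbol and 691 with several were left out, and 20380 stood for 12393 genes (Entrez identifier unmatched for 29), each by its brightest probe set. The 2 repeat scans were averaged with the first scans.

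Each set was fitted on its own in limma 3.58.1 (R 4.3.3, data.table, version 1.17.8) with a mean per group (192, 178, 41 and 14 residual degrees of freedom), and p-values were adjusted by Benjamini-Hochberg over the 12393 genes, with a threshold of 0.05. Any adjusted p printed without a named test is limma's. The fit and the permutation tests (100000 resamples) were tested on simulated data. Python 3.11.15, numpy 2.4.6, pandas 2.3.3, scipy 1.17.1 and matplotlib 3.10.9 were used.

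The members and lists were chosen with earlier results of these data known. Genes were named by rule: the members, the 8 genes of highest r with each, up to 3 per list by smallest adjusted p, and fixed ligands and markers. The alternatives were other models, priors, weights, scalings, probe sets, filters and dose scales, leaving out mice, and covariates, and their effect is given at the end. The labels do not say whether the mice of a group came from separate litters or cages.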

Additional observations from a re-analysis of the deposited data

Results flagged for a closer look

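In 16 of 309 tests of a group's highest or lowest mouse, 1 mouse stood far from the others of its group by Dixon's test, and chance gives about 1 in 20. For Ccr2 these were a GCSF mouse of the small treatment set without irradiation at 8.03 (the other 5 between 9.93 and 10.64), a mouse at 8.54 at 800 cGy and 6 hr (others 9.04 to 9.13), a mouse at 7.21 at 1050 cGy and 72 hr (others 6.60 to 6.77) and a mouse at 7.12 at 600 cGy and 168 hr (others 8.18 to 8.56). In the sex-treatment set they were a GCSF female at 11.26 at 300 cGy and 6 hr (others 10.41 to 10.59) and a GCSF male at 7.74 at 600 cGy and 6 hr (others 9.90 to 10.66).

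The GCSF mouse of the small treatment set that was low in Ccr2 was also low in Cx3cr1, at 5.87 against 6.86 to 7.26. The other Cx3cr1 values were a mouse at 6.26 at 150 cGy in the small 7 day set (others 6.72 to 7.15) and an unirradiated GCSF male at 7.38 at 6 hr (others 6.64 to 6.83).

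For Csf1r the dose-time set held a mouse at 9.87 at 600 cGy and 24 hr (others 10.91 to 11.30) and a mouse at 11.82 at 200 cGy and 168 hr (others 10.07 to 10.43). The sex-treatment set held an LPS female at 10.12 at 600 cGy and 6 hr (others 7.40 to 8.19), a GCSF female at 10.59 at 300 cGy and 24 hr (others 10.95 to 10.995) and a male without an agent at 9.57 at 0 cGy and 6 hr (others 10.17 to 10.36). It also held a GCSF male at 10.32 at 200 cGy and 6 hr (others 10.58 to 10.68) and a male without an agent at 11.36 at 200 cGy and 24 hr (others 9.91 to 10.06).

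The dose trends differed between the 6 bleeding times for Ccr2 (F = 11.3), Cx3cr1 (F = 26.6) and Csf1r (F = 18.01). The dose trend of Cx3cr1 at 6 hr differed between LPS and no agent by 0.22 per 100 cGy.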

How the results depend on the processing

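The fits were repeated under the alternatives. Of the values for single members and for differences between members, 2061 kept their side of the threshold, 84 lost a call, 47 gained one and 4 called values turned in sign. Values that were not called and changed sign without gaining a call count among the 2061. The Csf1r trend at 24 hr, for instance, ran from -0.02 to 0.08 over the alternatives. The 4 that turned were Cx3cr1 on its second probe set, at 6 hr (0.024) and under GCSF at 6 hr (0.0084), and, without arrays with Alb at 10 or above, Ccr2 at 120 hr (0.14) and Csf1r at 168 hr (-0.24). Mouse numbers did not pair the mice: the mean correlation of residuals between same-numbered mice of different groups was 0.02, 0.04, 0.06 and -0.13 in the dose-time, sex-treatment, small treatment and small 7 day sets. With mouse number as a replicate block 104 of 105 values kept their side of the threshold, and members called for the trend without an agent at 24 hr went from 2 to 1. The causes of the changes below were not tested, except that leaving out arrays or doses leaves fewer mice. Members called moved by over 1.5 times in 25 of 35 comparisons, in 80 of 726 fits, as follows.

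With array spread as a covariate they went from 1 to 2 for the trend at 6 hr, 0 to 1 for that at 24 hr, 0 to 1 for any difference at 6 hr, 3 to 1 under GCSF at 6 hr, 2 to 1 between sexes at 6 hr and 0 to 1 for 150 cGy at 168 hr. With array weights they went from 0 to 1 for GCSF at 0 cGy and its slope at 6 hr, for the sexes at 24 hr, for 600 cGy under GCSF in the small treatment set and for 150 cGy, and from 0 to 2 for the slope under LPS at 24 hr. Centring on the array median took the trend at 6 hr and that under GCSF at 24 hr from 1 to 0, and averaging the probe sets of a gene did the same and took the trend without an agent at 24 hr from 2 to 1. Quantile normalisation gave 2 for the trend at 6 hr, 2 for any difference at 6 hr, 1 without an agent at 24 hr, 0 under GCSF at 24 hr, 1 for LPS at 24 hr and 2 for 150 cGy. A log2 dose scale gave 2 at 24 hr. The groups of the comparison alone gave 1 for any difference at 24 hr.

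The second probe set gave 0 at 6 hr, 1 for any difference at 24 hr, 1 each without an agent, under GCSF and under LPS at 6 hr, 0 for the slope under LPS against none at 6 hr, 1 between sexes at 6 hr, 1 without an agent, 0 under GCSF and 0 for LPS at 24 hr, and 1 for 600 cGy under GCSF in the small treatment set. Without arrays with Alb at 10 or above the counts were 0 for the trend at 120 hr, 1 for any difference at 6, 24, 48, 120 and 168 hr, 1 between sexes at 6 hr, 0 without an agent at 24 hr and 0 under GCSF at 24 hr. Without the 800 cGy mice the trend at 24 hr gave 1. Chosen after the data were seen, the doses 0, 200, 300 and 600 cGy alone gave 1 at 48 hr and 1 at 72 hr. The macrophage covariate gave 0 at 6 hr, 1 at 24 hr, 1 for any difference at 72 hr and 0 under GCSF at 24 hr, and the NK covariate gave 1 for any difference at 6 hr and 2 for the slope under LPS against none at 6 hr.

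Fits that each omitted 1 mouse per group left the count as it was in 21 of the 35 comparisons. The count ranged from 0 to 1 for the trends at 6 and 24 hr, 2 to 3 at 72 hr, 1 to 3 for any difference at 24 hr, 2 to 3 for that at 72 hr, 1 to 2 without an agent at 6 and at 24 hr, 1 to 3 and 0 to 1 under GCSF at 6 and 24 hr, 1 to 2 and 0 to 1 for the slope under LPS against none at 6 and 24 hr, 1 to 2 for LPS at 24 hr, 1 to 2 between sexes at 6 hr and 0 to 1 for 600 cGy under GCSF in the small treatment set. The slope of Ccr2 minus Cx3cr1 at 168 hr lost its call on a log2 dose scale (0.15, permutation, adjusted p = 0.0841).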

Other observations

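Some values are given in full here or belong to no comparison above. Within groups of the dose-time set, Ccr2 followed the mean of 12 NK cell genes with r = 0.46 over 240 mice and Cx3cr1 followed it with r = 0.35, while Csf1r had r = -0.01 (permutation, adjusted p = 2.25e-05, 3e-05 and 0.895 over 9 relations chosen after the data were seen). Ackr3, a scavenging chemokine receptor listed with those of monocytes, had a steep rise, with slopes of 0.25, 0.43, 0.45 and 0.36 per 100 cGy at 48, 72, 120 and 168 hr. Cdkn1a, a p53 target that marks the response to irradiation, rose at all 6 times, with slopes from 0.10 at 24 hr to 0.58 at 168 hr.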
